A study of Mus musculus with 12 samples.

Results

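The mRNAs of 7 genes of translation elongation were followed here: Eef1a1, Eef1a2, Eef1b2, Eef1d, Eef1g, Eef2 and Eef2k. They were chosen by name for their roles in elongation. No cutoff on a measured value was used, but earlier results of these data were known. The members are 7 of 55073 gene records in the files and 7 of 14997 genes that were detected. A gene was called detected with at least 10 counts and a level above 0 in every library. The study compared the cortex of Larp1 WT mice, which carried Nestin-Cre, with that of Larp1 cKO mice, which carried Nestin-Cre and Larp1-flox/flox. Larp1 is an RNA-binding protein that binds mRNAs starting with a terminal oligopyrimidine (TOP) motif. All of these mice carried the Cre transgene, whose Nestin promoter is active in progenitors of neurons and of some glia, and the methods give the strain as C57BL/6J. The sequenced animals were 3 males of each genotype according to the methods, and neither the labels nor the methods state their age at sequencing. The labels list 12 samples, 6 per genotype in 2 parts for each of 3 replicates. The values come from 6 libraries that are known only by a mouse number, which none of the labels or methods links to a genotype or a replicate. Each library is therefore given by its mouse number, no genotype was assigned, and Larp1 cKO was not compared with Larp1 WT.

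Elongation repeats a short cycle for every codon. eEF1A, in its GTP form, brings aminoacyl-tRNA to the ribosome, the eEF1B complex reloads eEF1A with GTP, and eEF2 moves the ribosome on to the next codon. Mammals have a pair of eEF1A genes: Eef1a1 is active in most cells, and Eef1a2 takes over after birth in neurons and muscle, so that in the adult brain Eef1a2 is chiefly the form of neurons. The catalytic subunits of eEF1B are encoded by Eef1b2 and Eef1d, and Eef1g encodes the subunit that holds the complex together. Eef2k encodes the calcium-dependent kinase that phosphorylates eEF2 and slows elongation. mRNAs of elongation factors are classical members of the TOP family.

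The starts of the annotated transcripts are shown first, because a TOP motif is defined by the first bases of an mRNA. A motif was called where base 1 was a C followed by at least 4 pyrimidines (C or T), read on the transcript strand. At the first base of the leading isoform, which is the transcript with the highest median level in the files, 0 of the 7 genes had the motif. Among all detected protein-coding genes 320 of 13630 had it, or 2.35%. The next lines give the first 25 bases of 3 of these transcripts and of a coding Eef1b2 isoform with the motif, written 5′ to 3′ in GENCODE M21 on GRCm38, with the motif in capitals.
Eef1a1, chr9:78481700-78481724, minus strand: ttcccgagggtgggggagaacggta
Eef1a2, chr2:181156990-181157014, minus strand: ttctcgctcactggttctctccctc
Eef1g, chr19:8967041-8967065, plus strand: tttccaactcagcggggctgtagac
Eef1b2 coding isoform, chr1:63177130-63177154, plus strand: CTTTTTTTCCCTCagcgctggccgc

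The Eef1b2 isoform shown was not the leading one, and its C is followed by 12 pyrimidines. In TPM it was the highest coding transcript of Eef1b2, with a median of 17.7 TPM and 28.4% to 40.8% of the gene. The leading Eef1b2 transcript is itself annotated as a target of nonsense-mediated decay, so the count of 0 of 7 does not describe the coding mRNA of Eef1b2. Another Eef1b2 transcript, annotated as a target of nonsense-mediated decay, has the motif with 13 pyrimidines and reached 3.8 TPM in the highest library. Counting any annotated isoform, Eef1b2 and Eef1d had a motif, which is 2 of 7 members beside 10.7% of all genes. The Eef1d isoform with the motif was listed at 0 TPM in 4 of the 6 libraries and reached 0.94 TPM in the highest. For 5 of the 7 genes a RefSeq start was given on GRCm38.p6, and none of those windows began with the motif.

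The bases after the annotated start were then searched for the longest run of a C followed by pyrimidines, with the C among the first 100 bases. This search was chosen after the starts had been seen. A run with at least 6 pyrimidines after the C was found in 6 of the 7 leading isoforms, and runs of that length occur in 36.8% of all genes, so that such a run by itself sets few genes apart. The longest runs of 4 of those 6 members are shown in capitals with their flanks.
Eef1a1, chr9:78481648-78481677, minus strand: gacgttCTTTTTCgcaacgggtttgccgtc
Eef1a2, chr2:181156975-181157004, minus strand: ctggttCTCTCCCTCgctccggtgcatcat
Eef1g, chr19:8967121-8967150, plus strand: acactgCTCTCTCCTTTCCTCCTCCCTTgt
Eef1d, chr15:75909289-75909318, minus strand: cgggcgCCCTCCCTCTCCTTTgcagtcctg

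In Eef1a1 the run began at base 54 of the annotated transcript, and the letters TATATAA stood at base 24, before it and inside the transcript. TATATAA, read on the transcript strand, lay in the first 100 bases of 30 of 13630 genes, or 0.22%, and in no other member. The search for these letters was not planned in advance, and the share depends on the exact letters chosen. The run began at base 17 in Eef1a2, at base 24 in Eef1d and at base 87 in Eef1g. A run as long as that of Eef1g, with 21 pyrimidines after its C, occurs in 0.734% of genes, and one as long as that of Eef1d, with 14, in 2.53%. These matches describe letters in the annotation, and no start site was measured in these libraries. The study scored TOP motifs from start sites measured in neonatal mouse cortex. An annotated start without the motif therefore does not show that the mRNA lacks it.

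All 6 libraries came from rRNA-depleted RNA and held between 34689262 and 44463362 counts. Levels are in TPM, a share of all transcripts in which reads are divided by transcript length so that genes can be compared. Larp1, the gene the study deleted, stood at 19.96, 18.77 and 17.48 TPM in mice 678, 687 and 700, and at 6.28, 6.44 and 7.32 TPM in mice 688, 698 and 703. These levels were not used to assign a genotype. Of the marker lists, the 6 general neuronal genes summed to between 1563 and 2264 TPM and the 5 oligodendrocyte genes to between 414 and 650 TPM. The 3 cerebellar markers were not detected, with sums of 0.08 to 0.18 TPM. Of the 4 striatal and hippocampal markers, 3 varied widely: Adora2a ran from 0.29 to 4.29 TPM, Drd1 from 2.39 to 6.34 and Ppp1r1b from 25.3 to 53.1. Prox1 stayed between 2.38 and 2.97 TPM. The part of these cell types in the spread of the elongation factor mRNAs was not tested, and in tissue RNA fewer cells of a type and less RNA per cell cannot be told apart.

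Eef1a1 was the most abundant member in every library. It lies on chromosome 9 from 78478449 to 78489151. Its level was 766.9 TPM in mouse 678, 761.8 in mouse 687, 404.4 in mouse 688, 440.9 in mouse 698, 652.0 in mouse 700 and 549.3 in mouse 703. Mouse 678 was thus the highest and mouse 688 the lowest, with a ratio of 1.90 between them. Eef1a2, the form of neurons and muscle, lies on chromosome 2 from 181147653 to 181157014. It stood at 375.7 TPM in mouse 678, 338.1 in mouse 687, 280.6 in mouse 688, 313.4 in mouse 698, 333.9 in mouse 700 and 366.4 in mouse 703. The same mice were highest and lowest, but the ratio between them was 1.34. The lowest Eef1a1 level was above the highest Eef1a2 level, so that the ranges did not overlap.

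**Figure D1:**
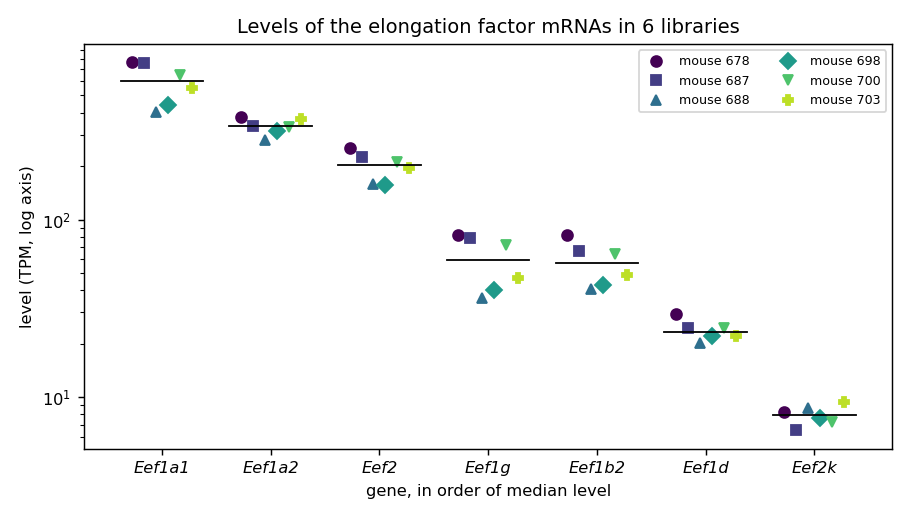
Level of each gene in each of 6 libraries, in TPM on a log axis, with 1 symbol per mouse and a bar at the median. Eef1a1 lay above Eef1a2, and Eef1a2 above Eef2, in every library, while the ranges of Eef1g and Eef1b2 overlapped.

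The other members followed at lower levels. Eef2, the translocation factor on chromosome 10, had a median of 203.3 TPM and ran from 157.3 in mouse 698 to 252.3 in mouse 678. Eef1g had a median of 59.2 TPM, from 36.3 in mouse 688 to 81.3 in mouse 678, and Eef1b2 one of 56.6 TPM, from 40.4 to 82.2 in the same mice. These last ranges overlapped, and Eef1g was the higher in 2 of 6 libraries, so their gene sums have no clear order. Counting coding transcripts only, Eef1g ran from 34.66 to 77.54 TPM and Eef1b2 from 18.71 to 35.11 TPM. Coding Eef1g was above coding Eef1b2 in every library. Eef1d, the other exchange subunit, had a median of 23.2 TPM and stayed between 20.2 and 29.2. Eef2k was the lowest, with a median of 7.98 TPM and a range from 6.5 in mouse 687 to 9.36 in mouse 703. All other neighbours in this order of gene sums were apart in all 6 libraries. In coding transcripts alone, however, Eef1d (19.2 to 27.7 TPM) overlapped Eef1b2. Together the 6 factors other than the kinase held between 0.0941% and 0.159% of all TPM.

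The contrast of the eEF1A genes can be read within a library, where the scaling between libraries cancels. Eef1a1 exceeded Eef1a2 in all 6 libraries. The ratio of their TPM was 2.04 in mouse 678, with a 95% interval of 2.01 to 2.07, 2.25 (2.22 to 2.29) in mouse 687 and 1.95 (1.92 to 1.98) in mouse 700. It was 1.44 (1.42 to 1.47) in mouse 688, 1.41 (1.38 to 1.43) in mouse 698 and 1.499 (1.473 to 1.525) in mouse 703. These intervals cover counting error only, since each library is a single value, and they overlap for mice 688 and 698 but not between any other neighbours in order. Between libraries the ratio differed by up to 1.60 times. At these counts the intervals are narrow, and they do not measure the spread between animals.

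**Figure D2:**
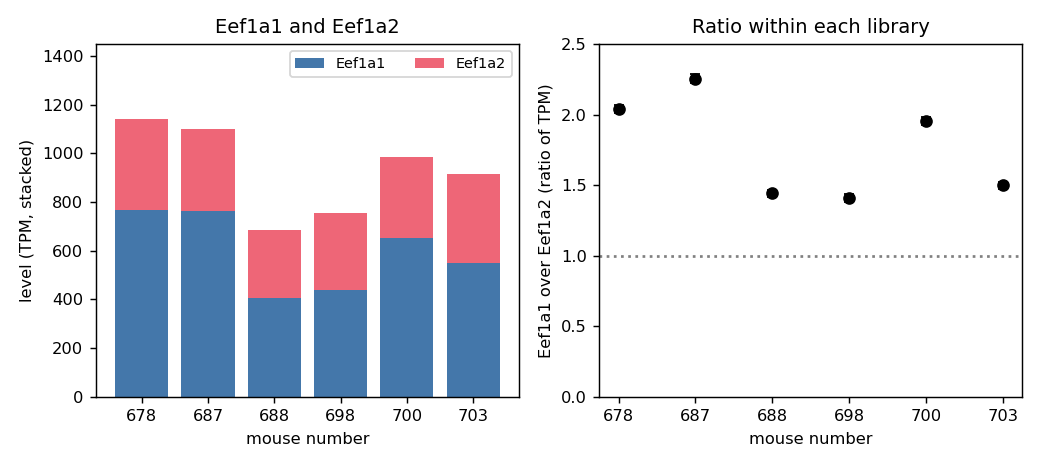
Left, Eef1a1 and Eef1a2 stacked for each mouse in TPM. Right, their ratio in each mouse with a 95% interval from the counts, mostly smaller than the symbol, and a dotted line at equal levels. The ratio lay between 1.41 and 2.25 and was above 1 in every library.

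As a share of the summed eEF1A mRNA, Eef1a2 made up 30.7% in mouse 687, 32.9% in mouse 678, 33.9% in mouse 700, 40.0% in mouse 703, 41.0% in mouse 688 and 41.5% in mouse 698. The median of 36.9% lies between the nearest libraries and is the value of none. The summed level itself ran from 685 TPM in mouse 688 to 1143 TPM in mouse 678. Length matters for this contrast: in expected counts, which are not divided by length, the median ratio of Eef1a1 to Eef1a2 was 1.30 in place of 1.73, and in TPM of coding transcripts alone it was 1.54.

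Reads of both genes can be told apart. Their coding sequences, of 1386 and 1389 bases, were identical at 1110 of 1389 aligned positions, or 79.9%, and no stretch of 31 bases was shared between any of the 7 members. Their untranslated ends also differ in length, with 120 bases before the coding sequence in Eef1a1 and 366 in Eef1a2. A small number of other records resembled the members in at least 50% of such stretches. The most abundant were the pseudogene Gm4366, like Eef1g, at a median of 2.05 TPM, and the pseudogene Gm13456, like Eef1a1, at 1.38 TPM. Assignment of reads between these and their parents is uncertain, but they are small beside the parents.

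The proportions between the members differed in how steady they were. Eef2 was the steadiest partner of eEF1A, at 20.5 to 23.2 TPM per 100 TPM of summed Eef1a1 and Eef1a2, a ratio of 1.13 between the highest and lowest library. Eef1b2 ranged from 5.34 to 7.20 per 100, Eef1d from 2.24 to 2.95 and Eef1g from 5.11 to 7.26. Within eEF1B, the ratio of Eef1g to Eef1d moved more, from 1.80 in mouse 688 to 3.21 in mouse 687. Summed over all transcripts, Eef1g and Eef1b2 kept closer to each other, with ratios between 0.898 and 1.18. Coding transcripts held 42.6% to 53.5% of Eef1b2 TPM but 94.7% to 96.7% of Eef1g TPM. The proportions with Eef1b2 are thus not those of coding mRNAs.

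The kinase did not follow its substrate from library to library. Eef2k stood at 8.29 TPM in mouse 678, 6.5 in mouse 687, 8.71 in mouse 688, 7.67 in mouse 698, 7.25 in mouse 700 and 9.36 in mouse 703. For each 100 TPM of Eef2 there were 3.29 TPM of Eef2k in mouse 678, 2.88 in mouse 687 and 3.43 in mouse 700. The values were 5.49 in mouse 688, 4.88 in mouse 698 and 4.79 in mouse 703, which made the highest 1.91 times the lowest. The widest gap between neighbouring values lay between mouse 700 (interval 3.23 to 3.65) and mouse 703 (4.50 to 5.09).

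To see how far the members varied beside other genes, the highest library was divided by the lowest for every detected gene. At least 1.5 was reached by 4 of the 7 members in TPM, Eef1a1, Eef1b2, Eef1g and Eef2, beside 47.9% of all detected genes. Their share was thus close to the background on this scale. TPM also carried a shift common to most genes, since nuclear protein-coding genes held only 22.7% to 28.8% of TPM in these rRNA-depleted libraries. The median gene lay 0.18 below its own mean on the log2 scale in mouse 700 and 0.20 above it in mouse 703. CPM, which is a share of all counts with no division by length, scaled by TMM to align the bulk of genes between libraries, left shifts of at most 0.01.

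On this CPM scale the same 4 members reached 1.5, while the share of all detected genes fell to 28.2%. Eef1g had the widest ratio among the members, 2.29, which was above that of 93.5% of detected genes. Eef1b2 followed at 1.94, Eef1a1 at 1.93 and Eef2 at 1.64, above 88.1%, 87.7% and 79.1% of genes. Eef2k (1.44), Eef1d (1.40) and Eef1a2 (1.38) stayed under 1.5, at the 67.2, 63.1 and 60.8 percentiles. For Eef2 the call rested on 1 library in TPM: without mouse 678 its ratio of 1.60 became 1.44. With the limit lower by 0.25 in TPM all 7 members passed, beside 92.0% of detected genes, and with a limit of 2 Eef1b2 and Eef1g passed, beside 15.2%. The 77 mRNAs of cytosolic ribosomal proteins, summarised as a reference, all reached 1.5 in TPM with a median ratio of 2.44. Sorted on the log2 scale, the 6 values of a gene had a gap wider than the spread on both of its sides in 2 of the 7 members in TPM, beside 38.9% of detected genes, and in 6 of the 7 in CPM, beside 40.5%.

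**Figure D3:**
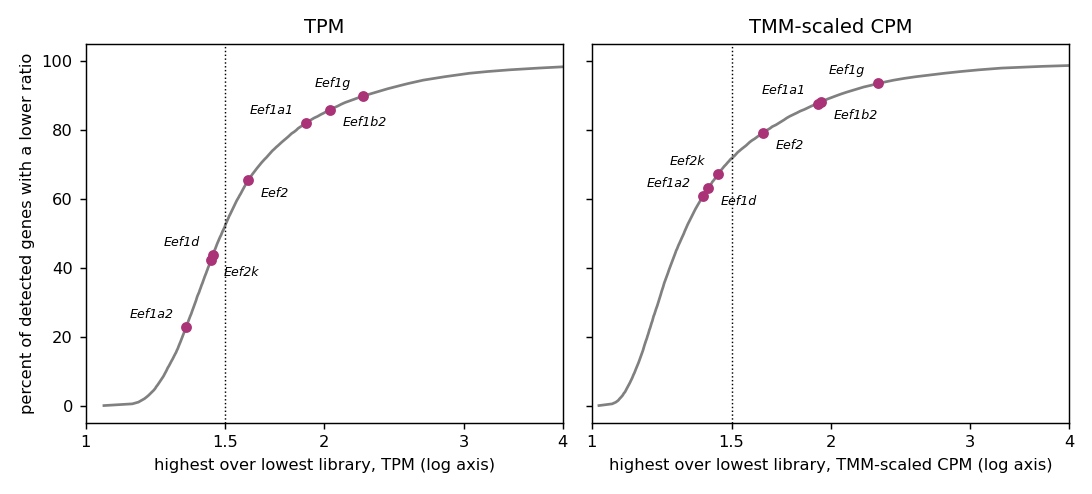
Highest over lowest library (log axis) against the percent of detected genes with a lower ratio, in TPM at left and in TMM-scaled CPM at right. The grey line is all detected genes, the points are the 7 members and the dotted line is the limit of 1.5. Eef1a2 lies at the 22.7 percentile in TPM and the 60.8 percentile in CPM, and Eef1g is the highest member in both.

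The pattern over the libraries on the CPM scale was compared member by member, as the root mean square difference of log2(CPM + 1) after each gene was centred over the 6 libraries. Eef1a1 and Eef1b2 differed least from each other among pairs with Eef1a1, by 0.08, and Eef1a1 and Eef1g by 0.12. Eef1a2 was closest to Eef1d, at 0.06, and stood 0.29 from Eef1a1. Among the members, Eef1d summed over its transcripts was thus nearest to Eef1a2, and Eef1b2 to Eef1a1. The median difference of a detected gene from Eef1a2 was 0.20. The Eef1d sum mixes the long and short kinds of mRNA described below, whose highest-to-lowest ratios in CPM were 1.30 and 2.09. The likeness of each kind to the other members was not tested. Eef2 lay between the eEF1A genes, at 0.13 from Eef1a1 and 0.16 from Eef1a2. Eef2k had no close partner, with differences of 0.26 to 0.63 from the other members.

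**Figure D4:**
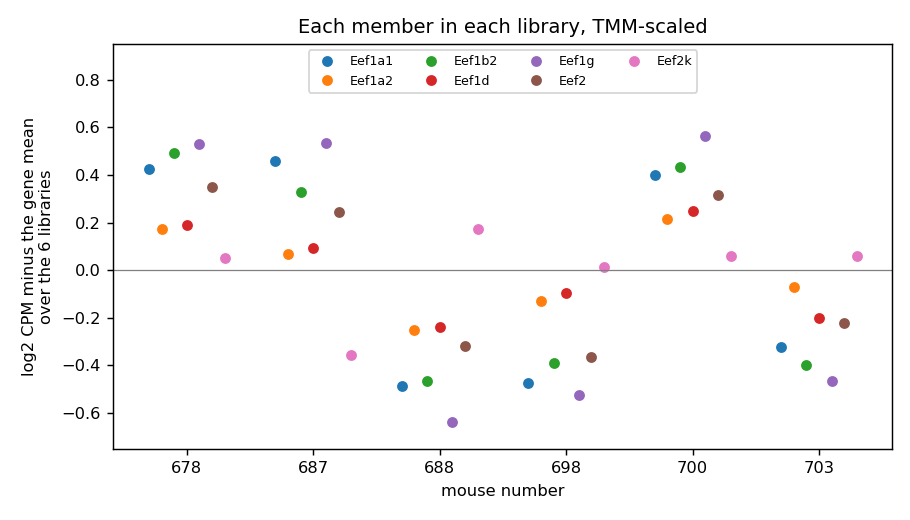
Each member in each library as log2 CPM minus the mean of that gene over the 6 libraries, TMM-scaled. Eef1g spans the widest range, from -0.64 in mouse 688 to 0.56 in mouse 700, and Eef2k has its low point, -0.35, in mouse 687.

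Named by the same measure over all 6 libraries, the 5 detected genes most like Eef1a1 were Rpl6 (0.04), Cox7a2l (0.04), Rpsa (0.05), Rps26 (0.05) and Eif3h (0.05). Rpl6, Rpsa and Rps26 encode ribosomal proteins and Eif3h a subunit of an initiation factor, and the median difference of a detected gene from Eef1a1 was 0.44. Ribosomal protein genes, which are 77 of the 14997 detected genes, made up 38 of the 100 genes nearest to Eef1a1 and 0 of the 100 nearest to Eef1a2. With so small a share of all genes, the 0 does not set Eef1a2 apart. Compared directly with the summed ribosomal proteins, Eef1g differed least, by 0.07, before Eef1a1 (0.17), Eef1b2 (0.18) and Eef2 (0.29). Eef1d differed by 0.42, Eef1a2 by 0.44 and Eef2k by 0.68. The 5 nearest to Eef1a2 were Rtcb (0.03), Syt12 (0.03), Gm13050 (0.03), AW495222 (0.04) and Creld2 (0.04), beside a median of 0.20. Gm13050 was at a median of only 0.41 TPM, where the added 1 flattens differences, and its highest library was 2.41 times its lowest in CPM beside 1.38 times for Eef1a2. AW495222 was at 2.44 TPM with a ratio of 1.68. With log2(TPM + 1) in place of CPM, 4 of the 5 were again among the nearest to Eef1a1 but only 1 of the 5 to Eef1a2, so the second list is not a stable one. A profile over 6 libraries holds few points, which all share the same scaling.

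The members differ in how many isoforms share their level. Eef1a2 has 1 annotated transcript, and 1 coding transcript held a median of 97.6% of Eef2 and 95.5% of Eef1g. In Eef1a1 the full coding transcript held between 79.1% and 86.5% of the gene's TPM, and a short noncoding transcript of 505 bases held another 6.31% to 11.1%. Short transcripts weigh more in TPM: in expected counts the full transcript held a median of 94.1%. In Eef1b2 the leading transcript is annotated as a target of nonsense-mediated decay (NMD), with 68 codons. NMD transcripts held 40.0% to 50.2% of Eef1b2 TPM and coding transcripts 42.6% to 53.5%. How RSEM shared reads among these overlapping transcripts was not tested.

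Eef1d makes 2 kinds of mRNA, of which the long kind is known from brain and testis. The leading Eef1d transcript, with 660 codons, holds an exon of 1130 bases on chromosome 15 from 75902679 to 75903808. The 6 annotated transcripts that overlap this exon were summed, and so were the 12 that do not, a split chosen after the isoform values had been seen. Transcripts with the long exon stood at 10.7 TPM in mouse 678, 11.1 in mouse 687, 9.42 in mouse 688, 10.5 in mouse 698, 10.3 in mouse 700 and 11.7 in mouse 703. They stayed within a ratio of 1.24. Those without it stood at 18.5, 13.6, 10.8, 11.6, 14.1 and 10.4 TPM in the same order of mice, a ratio of 1.78. Mouse 678 was thus highest for this sum, here called the short kind, and mouse 703 lowest for it. The sum includes 3 transcripts with a retained intron. The 9 coding transcripts without the exon ran from 9.78 TPM in mouse 688 to 16.9 in mouse 678, a ratio of 1.73, with mouse 703 at 9.9. In TMM-scaled CPM, without the shift of TPM in mouse 703, the long kind stood at 20.8, 21.4, 17.8, 19.6, 23.2 and 19.5 in the same order, with mouse 700 the highest and a ratio of 1.30. The short kind had a ratio of 2.09 on that scale, from 6.09 CPM in mouse 703 to 12.7 CPM in mouse 678. The long kind made up between 36.7% of Eef1d TPM in mouse 678 and 52.9% in mouse 703.

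**Figure D5:**
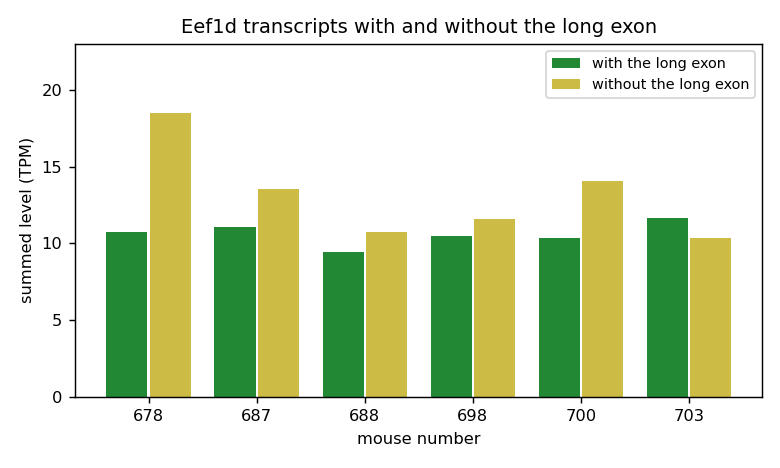
Summed TPM of Eef1d transcripts with and without the long exon in each mouse. Bars with the exon stay between 9.42 and 11.7 TPM, and those without it run from 10.4 to 18.5 TPM.

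Among genes that act on or beside elongation, 41 of 43 in 8 lists were detected. A ratio of at least 1.5 was reached by 18 of these 41 in TPM and by 4 in TMM-scaled CPM, beside 47.9% and 28.2% of all detected genes. Those 4 were Pelo (1.53), Eef1akmt1 (1.55), Dph5 (1.64) and Aimp1 (1.86), each from another list. The counts by list that follow are in TPM and so carry its common shift. Of the mitochondrial elongation factors, 1 of 5 reached it in TPM, with Tufm the highest at a median of 18.2 TPM and Gfm1 the widest at 1.51. The eIF5A list reached it in 1 of 4, with Eif5a at 119.8 TPM and a ratio of 1.24, and Eif5a2 the widest at 1.56. Of the factors for selenocysteine and stalled ribosomes it was 2 of 5, Gtpbp1 being highest at 12.9 TPM and Pelo widest at 1.58. The termination and recycling factors gave 3 of 4, with Gspt1 highest at 18.4 TPM and Gspt2 widest at 1.70, or 1.36 in CPM.

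Enzymes that modify the factors were low. The lysine methyltransferases gave 2 of 4 detected, with Eef1akmt1 highest at 10.6 TPM and Eef2kmt widest at 2.02, or 1.39 in CPM. Eef1akmt3 and Eef1akmt4 were not detected, with highest levels of 0.01 and 0.44 TPM. Diphthamide, the modified histidine of eEF2, is made by enzymes of which 4 of 7 reached 1.5, with Dph3 highest at 8.58 TPM and Dph7 widest at 1.68, or 1.35 in CPM. In the list of valyl-tRNA synthetase and genes of the multisynthetase complex 2 of 4 reached 1.5. Aimp1 was both highest, at 13.5 TPM, and widest, at 1.74 in TPM and 1.86 in CPM. The inputs of Eef2k gave 3 of 8. Prkaa1, a catalytic subunit of AMP-activated kinase, was the widest at 1.62, or 1.21 in CPM.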

How the data were processed

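According to the methods, cutadapt trimming was followed by STAR alignment to mm10 and RSEM quantification, all of unstated version. The methods describe gene-level values on UCSC annotation, whereas each file lists Ensembl transcripts. The authors deposited raw expected counts and TPM for every transcript, and 24 other value columns (such as FPKM and effective length) were left aside. The tissue of the files is inferred from the labels, which list cortex throughout.

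Identifiers were looked up in GENCODE M21 after the version was dropped (99.4% were found and 910 were not) and both units were summed per gene, with expected counts rounded. Where 107 symbols had more than 1 record, the record with the highest count was used. Counts were scaled by TMM (edgeR 4.0.16, R 4.3.3) or DESeq2 1.42.0 size factors. Another 5 genes met the count minimum of 10 but were listed at 0 TPM and were left out. Near-identical genes shared at least 50% of their 31-base stretches. Scaling and the measure of likeness were tested on simulated data. The 15 pairs of libraries differed by a chi-square of 14.8 to 67.4 per degree of freedom, so none was deposited again under another number. Intervals are 95% from Poisson counts on the log scale. PCR reads are not independent molecules, so the intervals cover counting error only.

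The members, the lists and the named genes (the members, Larp1, the 5 genes most like Eef1a1 and most like Eef1a2, and in each list the highest and the widest gene) were chosen with earlier results of these data known. Promoter windows and transcript starts are from RefSeq and GENCODE. Protein sequences were not used here, and 1 gene that the rule names and 1 sequence are not reported here. The planned test of genotype with edgeR was not run, because no library could be given a genotype. CPM values of the Eef1d forms and of the gene lists were added after seeing the data. No mean, SD or p-value was computed over libraries.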

Additional observations from a re-analysis of the deposited data

Results flagged for a closer look

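Dixon's ratio was computed for 28 series of 6 values, the levels and ratios of the members, and 1 passed its 95% limit for 6 values. Eef2k in mouse 687 stood at 20.6 CPM after TMM scaling, below the other 5 libraries, which lay between 26.6 and 29.7 CPM. Chance flags about 1 in 20 such series. In TPM the same library was also the lowest for Eef2k, at 6.5, but did not pass the limit.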

How the results depend on the processing

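No paired analysis was possible because no library could be matched to a genotype or a replicate number, and the genotype test, its replicate block and its DESeq2 form were not run. The count of 4 members with a ratio of at least 1.5 was 4 under TMM, DESeq2 size factors, TPM over protein-coding genes, addition of near-identical genes and TPM + 1. It was 3 to 4 when each library was left out, 7 with a limit lower by 0.25, which 92.0% of all detected genes passed, and 2 with a limit of 2, which 15.2% passed. The share of all genes past 1.5 became 14.2% with no filter and TPM + 1, 36.1% with at least 100 counts and, chosen after seeing the data, 28.2% in TMM-scaled CPM and 33.9% in TPM over protein-coding genes. The median ratio of Eef1a1 to Eef1a2 became 1.30, and the Eef1a2 share 43.8%, in expected counts, which do not divide by length. Leaving out each library gave 1.499 to 1.953 and 33.9% to 40.0%. With coding transcripts alone they were 1.54 and 39.6%. The count of members with a TOP motif was 0 at the leading start, 2 over any isoform and 6 within the first 100 bases, the last also chosen after seeing the data. Of 84 values of single genes under these alternatives, 63 stayed within counting error or the spread over libraries and 21 moved beyond it. The depth leaves at least 904 counts for every member in every library. With 1 library per mouse and no genotype, differences between libraries have no replicate check.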

Other observations

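On the TMM-scaled CPM scale the values of 6 of the 7 members fell into separate clusters, meaning that the values, sorted on the log2 scale, had 1 gap wider than the spread of the libraries above it and of those below it. The same held for 40.5% of all detected genes. In TPM it held for 2 of 7, Eef1b2 and Eef1g, beside 38.9% of all detected genes. For Eef2k on the CPM scale the lower cluster was mouse 687 alone, and a single library has no spread. The libraries have no known genotype, so these are values of single libraries and not of groups.

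Eef1a1 stood at 1132 CPM in mouse 678, 1157 in mouse 687 and 1109 in mouse 700, and at 600.2 in mouse 688, 607.1 in mouse 698 and 673.4 in mouse 703. The gap was 0.72 on the log2 scale, beside ranges of 0.17 below it and 0.06 above it. Eef1g, the scaffold of eEF1B, had the widest gap of the members, 0.99 (log2), with 135.8, 136.2 and 138.9 CPM in mice 678, 687 and 700 and 60.5, 65.4 and 68.1 in mice 688, 698 and 703. Eef1b2 (gap 0.72), Eef2 (gap 0.47) and Eef1d (gap 0.19) divided the libraries in the same way. The 40.5% of all detected genes counts a gap at any place in the order. The share of genes with this same division is not given, so the division cannot be called particular to the members. For Eef1d the gap was only a little wider than the ranges beside it, 0.14 and 0.15.

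Eef1a2 fell just short of this measure. Its 6 values were 725 CPM in mouse 678, 674.2 in mouse 687, 540.6 in mouse 688, 587.9 in mouse 698, 746.3 in mouse 700 and 613.1 in mouse 703, and the widest gap of 0.14 was narrower than the ranges of 0.18 below it and 0.15 above it. That gap also had mice 678, 687 and 700 above it and mice 688, 698 and 703 below it. Eef2k divided in another way, with mouse 687 alone at 20.6 CPM. Larp1 was at 125 CPM in mouse 678, 123.8 in mouse 687 and 126.1 in mouse 700, and at 40.1, 38.7 and 40.7 in mice 688, 698 and 703, with a gap of 1.61. No genotype was read from these values, and no test was made across them.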
